A study of Homo sapiens with 6 samples.

Results

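The mRNA levels of 10 ATF4 stress response genes were examined in MDA-MB-231 cells after treatment with vehicle or guadecitabine. The genes were given as a list of symbols, namely ATF4, DDIT3, DDIT4, TRIB3, CHAC1, ASNS, PSAT1, PHGDH, SLC7A5 and VLDLR. All 10 were found among the 17100 genes with deposited counts, and all 10 passed the filter on low counts that left 13322 genes for testing. MDA-MB-231 is an established line of human breast adenocarcinoma cells that lack hormone receptors. Guadecitabine (SGI-110) is a dinucleotide prodrug of decitabine, a nucleoside that inhibits DNA methyltransferases once it is incorporated into DNA. There were 3 libraries of vehicle-treated cells and 3 of cells cultured with 1 µM guadecitabine for 96 h and then kept without the drug for 24 h. The study describes RNA from 3 independent experiments on 1 cell line, and the titles number the libraries of each group from 1 to 3. Whether libraries of equal number came from the same experiment is not stated, and no sequencing batch is given in the labels.

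ATF4 is a bZIP transcription factor at the centre of the integrated stress response. Kinases that sense amino acid shortage, unfolded protein in the endoplasmic reticulum, heme deficiency or double-stranded RNA phosphorylate the translation initiation factor eIF2, which slows translation in general while the ATF4 mRNA is translated more efficiently. ATF4 protein then pairs with C/EBP family members on composite promoter elements and switches on genes for amino acid synthesis and uptake, and, when stress lasts, genes such as DDIT3 and TRIB3. Because much of this control acts on translation, the mRNA level of ATF4 is not a measure of ATF4 protein, which was not measured in these libraries.

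The libraries held between 8792127 counts, in guadecitabine replicate 2, and 22277442 counts, in vehicle replicate 3. Vehicle replicate 3 stood apart, with only 20 genes at 0 counts against 1593 to 2517 in the other libraries. On 2782 genes with at most 1 count in each of vehicle replicates 1 and 2, the median in that library was 7.78 counts per kb of exon. At that rate, the counts expected from this background were 0.257% of the count of DDIT4 in this library and 9.49% of that of VLDLR, the lowest and the highest share among the members. No gene with deposited counts had fewer than 11 counts in total. The genes behind this rate were therefore present only through counts in vehicle replicate 3 or after guadecitabine, so the rate may be too high. Each member had at least 62 counts in each library. The marker genes of these mesenchymal-like cells, VIM, CD44, EGFR and AXL, had between 910 and 82480 counts in each library. The hormone receptor genes ESR1 and PGR had at most 1 count, except for 67 and 43 counts in vehicle replicate 3. The luminal marker GATA3 had 321 to 766 counts and the epithelial marker CDH1 6 to 87. Of markers of other cells, PTPRC, VWF and DCN had at most 11 counts except in vehicle replicate 3, with 24 to 66, while PECAM1 and COL6A3 had 39 to 572.

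The sequences upstream of 3 genes are shown because ASNS and CHAC1 held the element that ATF4 and C/EBP factors recognise, and because DDIT4 changed the most. RefSeq start sites gave 15 windows of 300 bp for the 10 genes, from 250 bp upstream to 50 bp downstream of the start, on the GRCh38.p14 build. These windows were searched on both strands for TGATGNAA, the core of the C/EBP-ATF response element. It was found once in a window of ASNS and once in that of CHAC1, and in no window of the other 8 members. Over all 35116 RefSeq windows of this length, 3.62% held the element. No match says only that these letters do not occur in this window. Windows were taken by gene symbol and not matched to the counted transcript, whose start may lie outside them. The 250 bp upstream of the start are printed in the direction of transcription, with the element in capitals, for ASNS at chr7:97872409-97872658 on the minus strand, CHAC1 at chr15:40953221-40953470 on the plus strand and DDIT4 at chr10:72273674-72273923 on the plus strand.
ASNS: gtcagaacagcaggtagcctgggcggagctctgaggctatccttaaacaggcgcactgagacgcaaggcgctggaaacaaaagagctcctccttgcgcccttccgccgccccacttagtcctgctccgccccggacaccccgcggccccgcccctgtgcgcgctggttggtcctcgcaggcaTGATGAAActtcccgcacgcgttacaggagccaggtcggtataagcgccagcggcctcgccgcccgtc
CHAC1: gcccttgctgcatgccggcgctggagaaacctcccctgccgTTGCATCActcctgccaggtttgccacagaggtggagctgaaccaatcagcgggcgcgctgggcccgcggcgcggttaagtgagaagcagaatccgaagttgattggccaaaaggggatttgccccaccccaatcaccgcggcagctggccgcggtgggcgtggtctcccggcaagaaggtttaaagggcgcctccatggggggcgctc
DDIT4: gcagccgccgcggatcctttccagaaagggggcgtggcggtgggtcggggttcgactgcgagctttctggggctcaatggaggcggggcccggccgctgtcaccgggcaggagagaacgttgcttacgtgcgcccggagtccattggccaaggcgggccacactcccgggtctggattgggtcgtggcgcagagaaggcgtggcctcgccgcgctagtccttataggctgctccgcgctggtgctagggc
The element of ASNS begins 68 bp upstream of the start site, and that of CHAC1, which reads TGATGCAA on the opposite strand, begins 209 bp upstream. The windows of the members held 15 (PHGDH) to 49 (VLDLR) CpG sites, the target of DNA methylation, with a median of 27 against 14 over all RefSeq windows. DDIT4, without the element, had 30 CpG sites in its window. Methylation itself was not measured in these libraries.

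After guadecitabine, DDIT3 was higher and DDIT4, VLDLR, PSAT1 and ASNS were lower, while ATF4, TRIB3, CHAC1, PHGDH and SLC7A5 did not pass the threshold (edgeR, adjusted p of 0.05 over all genes tested). Lower members thus made up 4 of 10, against 18.4% of all genes tested, and higher members 1 of 10, against 19.3%. In either direction 5 of 10 were called, against 37.7% of all genes. The median log2 fold change of the members was -0.21, against 0.02 for all genes tested, and 8 of the 10 values were negative. Normalized counts of the groups did not overlap in 7 of 10 members, against 51.7% of all genes tested, so that this share was not far above the background. Only DDIT4 changed by more than 2-fold.

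**Figure D1:**
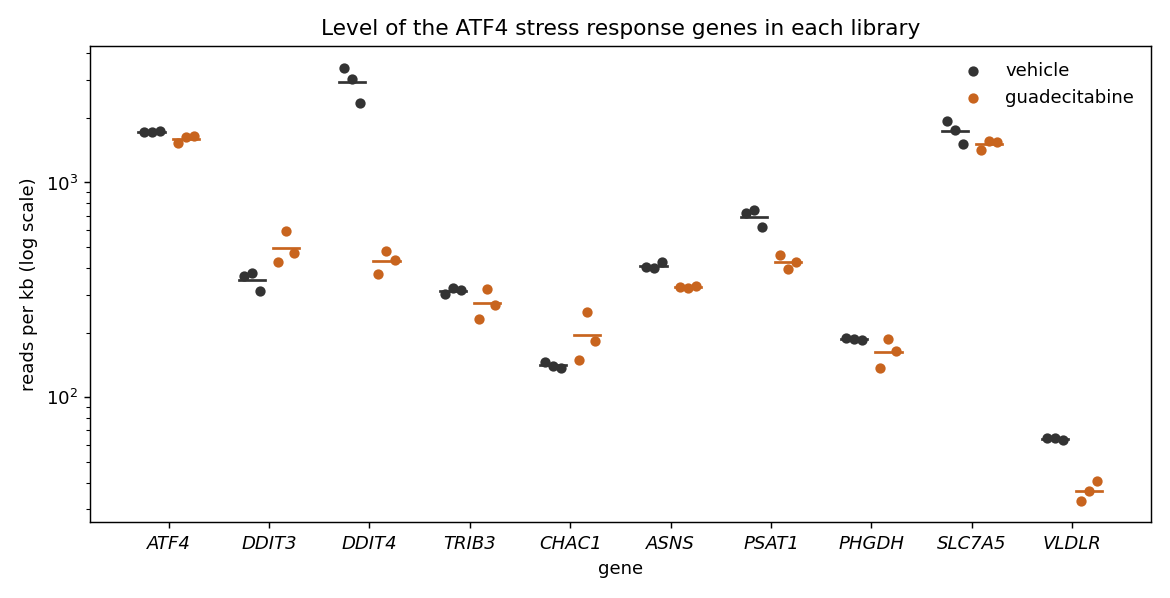
Level of each of the 10 genes in reads per kb on a log axis, with 1 point for each library and a line at the mean of each group, in vehicle (dark) and guadecitabine (orange). DDIT4 falls from 2932 to 429 reads per kb and leaves its place above ATF4 and SLC7A5, and VLDLR has the lowest level in both groups.

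On the hg19 build, ATF4 lies at chr22:39916564-39918691, DDIT3 at chr12:57910371-57914300, DDIT4 at chr10:74033677-74035797, TRIB3 at chr20:361273-378203, CHAC1 at chr15:41245636-41248717, ASNS at chr7:97481429-97501854, PSAT1 at chr9:80911991-80945009, PHGDH at chr1:120254419-120286849, SLC7A5 at chr16:87863629-87903100, and VLDLR at chr9:2621793-2654485. The counts cover the exons of 1 RefSeq transcript each. Levels were compared between genes as reads per kb, where each normalized count was divided by its exon length. In vehicle, DDIT4 had the highest level, 2932 ± 553 reads per kb (SD, n = 3), followed by SLC7A5 with 1738 ± 213 and ATF4 with 1728 ± 12.2. PSAT1 had 694 ± 67.3 reads per kb, ASNS 410 ± 12.5, DDIT3 352 ± 35.0 and TRIB3 314 ± 10.1. PHGDH, CHAC1 and VLDLR were the lowest, at 186 ± 2.3, 141 ± 4.25 and 64.1 ± 0.686 reads per kb. The SDs of these last genes are below their counting error and understate the spread. The ranges of neighbours overlapped only for SLC7A5 with ATF4 and for DDIT3 with TRIB3. After guadecitabine, ATF4 came first with 1600 ± 57.0 reads per kb (SD, n = 3) and overlapped with SLC7A5 at 1513 ± 78.7. DDIT3 moved from the sixth to the third place with 497 ± 87.9 reads per kb, and its range overlapped with that of DDIT4, which moved from the first to the fourth place with 429 ± 54.1. DDIT4 in turn overlapped with PSAT1 at 427 ± 31.6 reads per kb. So did DDIT3, whose lowest library had 426 reads per kb against 458 in the highest library of PSAT1. TRIB3 overlapped with CHAC1, and CHAC1 with PHGDH.

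ATF4, the factor that gives the response its name, had 3481, 3496 and 3529 normalized counts in vehicle replicates 1, 2 and 3 and 3111, 3297 and 3323 after guadecitabine. The vehicle libraries lay within a coefficient of variation of 0.709%, and each guadecitabine library was below each vehicle library. At 3311 to 4570 raw counts per vehicle library, counting error alone is larger than 0.709%, so that value understates the spread. The difference was small, with a log2 fold change of -0.11 (95% interval -0.32 to 0.09, adjusted p = 0.372, edgeR), so that a fall of more than 0.32 on the log2 scale or a rise of more than 0.09 lay outside the interval.

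DDIT3, which encodes CHOP, a bZIP factor linked to cell death under lasting endoplasmic reticulum stress, was the member that rose. It had 347, 358 and 296 normalized counts in the vehicle libraries and 403, 564 and 445 in the guadecitabine libraries. All 3 guadecitabine libraries were above all 3 vehicle libraries, with replicate 2 the highest. The log2 fold change was 0.49 (SE, the standard error, 0.149, adjusted p = 0.0294, edgeR). The call was close to the threshold: it was kept without guadecitabine replicate 1 (adjusted p = 0.0123) and lost without any other library, with values from 0.35 without guadecitabine replicate 2 to 0.55 without vehicle replicate 2 and adjusted p from 0.0552 to 0.0791 in edgeR. Without vehicle replicate 3 the log2 fold change was 0.41.

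DDIT4, or REDD1, a stress-induced inhibitor of mTORC1 that ATF4, hypoxia and glucocorticoids can induce, showed the largest change of the list. It had 6010, 5306 and 4094 normalized counts in vehicle and 653, 843 and 759 after guadecitabine. The lowest vehicle library was far above the highest guadecitabine library. The log2 fold change was -2.78 (SE 0.167, adjusted p = 4.18e-06, edgeR), a level 6.86-fold lower after guadecitabine. Among the 4203 genes with a mean of at least 1000 normalized counts, a bound chosen after the values were seen, 3 genes including DDIT4 fell this far. Over all 13322 genes tested, 55 had a more negative log2 fold change. Leaving out 1 library at a time kept the value between -2.92 and -2.65.

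TRIB3, a pseudokinase that ATF4 and CHOP induce and that dampens ATF4 activity in return, had 752, 801 and 787 normalized counts in vehicle and 575, 796 and 668 after guadecitabine. Guadecitabine replicate 2 lay within the vehicle range and the other 2 below it. Its log2 fold change was -0.21 (95% interval -0.50 to 0.09, adjusted p = 0.239, edgeR).

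CHAC1, which degrades glutathione and is a target of ATF4, had 207, 199.6 and 195 normalized counts in vehicle and 212, 356 and 261 after guadecitabine. The groups did not overlap, but guadecitabine replicate 1 was barely above vehicle, and the coefficient of variation was 26.5% after guadecitabine against 3.02% in vehicle. At 189 to 252 raw counts per vehicle library, counting error alone is larger than 3.02%, so that value understates the spread. The log2 fold change of 0.45 (95% interval 0.02 to 0.87, unadjusted p = 0.0407, edgeR across all genes) did not pass after adjustment (adjusted p = 0.0904). Without guadecitabine replicate 1 it was 0.61 and passed (adjusted p = 0.0171, edgeR).

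**Figure D2:**
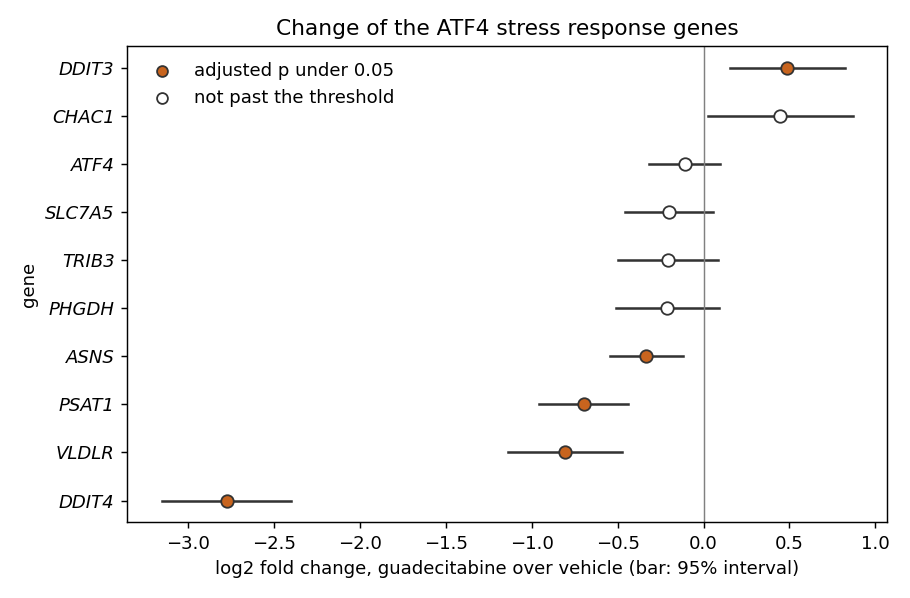
Log2 fold change of guadecitabine over vehicle for each of the 10 genes, with points at the edgeR estimate and bars over the 95% interval. Filled points passed an adjusted p of 0.05, and DDIT4 at -2.78 lies apart from the others, which sit between -0.81 and 0.49.

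The genes of serine and asparagine synthesis were lower or did not pass the threshold. PSAT1, the aminotransferase of the serine pathway, had 1621, 1683 and 1395 normalized counts in vehicle and 1034, 891 and 964 after guadecitabine. The groups were clearly separate, and the log2 fold change was -0.70 (SE 0.115, adjusted p = 0.00152, edgeR), a level 1.62-fold lower. PHGDH, the enzyme of the first step of that pathway, had 379, 376 and 370 normalized counts in vehicle and 275, 374 and 329 after guadecitabine. Here guadecitabine replicate 2 lay within the vehicle range, and the log2 fold change was -0.21 (95% interval -0.51 to 0.09, adjusted p = 0.242, edgeR). ASNS, asparagine synthetase, a classical ATF4 target with the element shown above, had 718, 710 and 751 normalized counts in vehicle and 577, 570 and 584 after guadecitabine. The groups did not overlap. Their coefficients of variation were 3.05% in vehicle and 1.19% after guadecitabine. Counting error alone is larger at 280 to 973 raw counts per library, so these values understate the spread. The log2 fold change of -0.33 (SE 0.095, adjusted p = 0.0226, edgeR) corresponds to a level 1.26-fold lower. The call was lost without vehicle replicate 1, vehicle replicate 2, vehicle replicate 3 or guadecitabine replicate 3, with log2 fold changes of -0.35 to -0.31 and adjusted p of 0.0673 to 0.0837 (edgeR).

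SLC7A5, which encodes LAT1, the light chain of the main carrier of leucine and other large neutral amino acids, had 8807, 8000 and 6879 normalized counts in vehicle and 6464, 7127 and 7028 after guadecitabine. The ranges overlapped, and the log2 fold change was -0.20 (95% interval -0.46 to 0.06, adjusted p = 0.196, edgeR). VLDLR, a lipoprotein receptor that ATF4 can induce under endoplasmic reticulum stress, was the member with the lowest level. It had 223, 224 and 219 normalized counts in vehicle and 114, 126 and 140 after guadecitabine, so that the groups were far apart. The log2 fold change was -0.81 (SE 0.147, adjusted p = 0.00254, edgeR), a level 1.75-fold lower. Without vehicle replicate 3, the library with the raised background, it was -0.82.

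The exact permutation test over the libraries (two-sided) gave p = 0.1, the smallest value that 3 against 3 libraries allow, for each of the 7 members without overlap. It gave p = 0.2 for PHGDH and p = 0.3 for TRIB3 and SLC7A5 (exact permutation test). Within guadecitabine, the replicates were ordered alike in many members. Replicate 2, the library with the fewest counts, had the highest normalized count in 6 of 10 members, and replicate 1 had the lowest in 8 of 10. In vehicle, replicate 3 was the lowest in 7 of 10. The part of depth or of the background of vehicle replicate 3 in these orders was not tested.

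**Figure D3:**
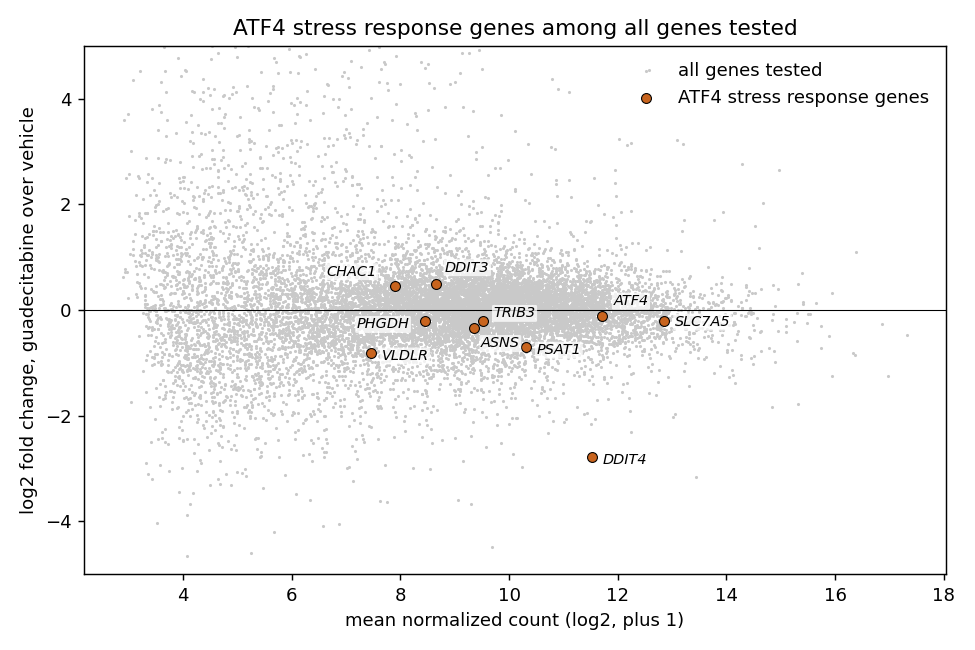
Log2 fold change of guadecitabine over vehicle against the mean normalized count on a log2 scale for all 13322 genes tested (grey) and the 10 members (orange, labelled). The axis ends at 5 in both directions, which leaves out 80 genes, and DDIT4 lies at the lower edge of genes of its level while ATF4 and SLC7A5 lie near 0.

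Other genes of the pathway were read from 6 lists with 59 genes, of which 58 were tested. Of these, 17 were higher and 7 lower, where 19.3% of all genes tested were higher and 18.4% lower, the background for the count of each list as well. Their median log2 fold change was 0.24, against -0.21 for the 10 members and 0.02 for all genes tested. The regulators of eIF2 and the bZIP partners made up 7 of the 17 higher genes, while genes of amino acid metabolism and transport moved in both directions. The difference between lists was not tested.

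Of the 7 genes for the eIF2 kinases, phosphatase subunits and eIF2 itself, 3 were higher and 0 lower, with a median log2 fold change of 0.30. PPP1R15A, or GADD34, the inducible subunit of the phosphatase that restores eIF2, rose from 2240 ± 188 to 5806 ± 456 normalized counts (SD, n = 3), which is a log2 fold change of 1.37 (adjusted p = 2.52e-05, edgeR). PPP1R15B, its constitutive counterpart, had a log2 fold change of 0.44 and EIF2S1, the alpha subunit of eIF2, of 0.41 (adjusted p of 0.00795 and 0.0287, edgeR). The call of EIF2S1 was lost without each library but guadecitabine replicate 2, at 0.30 to 0.46. None of the 4 kinase genes passed the threshold in edgeR. The kinase of the endoplasmic reticulum, EIF2AK3 (PERK), had 0.30, the amino acid sensor EIF2AK4 (GCN2) 0.16, the sensor of double-stranded RNA EIF2AK2 (PKR) 0.10 and the heme sensor EIF2AK1 (HRI) -0.21 on the log2 fold change scale.

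Of 8 genes for bZIP partners and related factors, 4 were higher and 0 lower, with a median log2 fold change of 0.48. CEBPB, a partner of ATF4 on composite elements, rose from 462 ± 42.0 to 1320 ± 232 normalized counts (SD, n = 3), which is a log2 fold change of 1.51 (adjusted p = 6.62e-05, edgeR). ATF3, a stress-induced factor downstream of ATF4, went from 245 ± 31.3 to 608 ± 26.9 normalized counts, a log2 fold change of 1.31 (adjusted p = 6.08e-05, edgeR). ATF5, a paralogue that is also under translational control, rose by a log2 fold change of 1.18 (adjusted p = 9.17e-05, edgeR). In all 3 genes the groups did not overlap. Without guadecitabine replicate 2, 1 gene of this list was called lower.

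Among 11 enzymes of amino acid and folate metabolism, 1 was higher and 3 were lower, and without vehicle replicate 3 there were 3 higher. MTHFD2, a mitochondrial folate enzyme, rose from 703 ± 92.7 to 1785 ± 151 normalized counts (SD, n = 3), which is a log2 fold change of 1.35 (adjusted p = 6.62e-05, edgeR). Its neighbours in the mitochondrial folate pathway moved the other way: SHMT2, which splits serine to glycine, had -0.56 and MTHFD1L -0.60 on the log2 fold change scale (adjusted p of 0.00447 and 0.00329, edgeR). GPT2, which makes alanine, had -0.59 (adjusted p = 0.00590, edgeR). PSPH, the last enzyme of serine synthesis after PHGDH and PSAT1, had -0.25 and did not pass (adjusted p = 0.0717, edgeR).

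Of 9 amino acid transporters, 3 were higher and 3 lower, with 1 lower without vehicle replicate 1 or guadecitabine replicate 3. The cystine carrier SLC7A11 and SLC3A2, the heavy chain that both SLC7A11 and SLC7A5 need, rose with log2 fold changes of 0.84 and 0.64 (adjusted p of 0.0141 and 0.0140, edgeR). The glycine carrier SLC6A9 fell from 780.0 ± 71.6 to 280.1 ± 34.2 normalized counts (SD, n = 3), which is a log2 fold change of -1.49 (adjusted p = 3.69e-05, edgeR). The glutamine carrier SLC1A5 had 0.44 and was higher, while SLC1A4 and SLC38A2 had -0.44 and -0.43 and were lower (adjusted p of 0.0389, 0.0327 and 0.0478, edgeR). The calls of these last 3 genes were lost in most fits without 1 library, with adjusted p up to 0.112, 0.122 and 0.174 in edgeR. For SLC38A2 the groups also overlapped, with 4836 normalized counts in vehicle replicate 3 and 5020 in guadecitabine replicate 1.

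The 12 aminoacyl-tRNA synthetases, which load amino acids on tRNAs and are ATF4 targets in many cells, mostly did not pass, with 2 higher and 1 lower. AARS, for alanine, had -0.59, and NARS, for asparagine, and CARS, for cysteine, had 0.52 and 0.43 on the log2 fold change scale (adjusted p of 0.00703, 0.0213 and 0.0202, edgeR). Without vehicle replicate 1 neither NARS nor CARS passed, 1 synthetase was higher without vehicle replicate 2 or guadecitabine replicate 3, and 5 were higher without guadecitabine replicate 2. Of 11 tested other stress targets, 4 were higher and 0 lower, or 2 higher without vehicle replicate 2, vehicle replicate 3, guadecitabine replicate 2 or guadecitabine replicate 3. STC2, a secreted glycoprotein induced by ATF4, had 12, 10 and 204 raw counts in vehicle and 3601, 1715 and 2861 after guadecitabine. Its log2 fold change was 5.60 (SE 0.735, adjusted p = 0.000419, edgeR), and 8.12 without vehicle replicate 3, which held most of the vehicle counts. CHAC2, the constitutive relative of CHAC1, had 0.61 and the secreted stress cytokine GDF15 had 0.47 (adjusted p of 0.00754 and 0.0286, edgeR), and GDF15 lost its call without any library but guadecitabine replicate 1. SESN2, another ATF4 target that restrains mTORC1 as DDIT4 does, had 0.21 and did not pass (adjusted p = 0.183, edgeR).

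**Figure D4:**
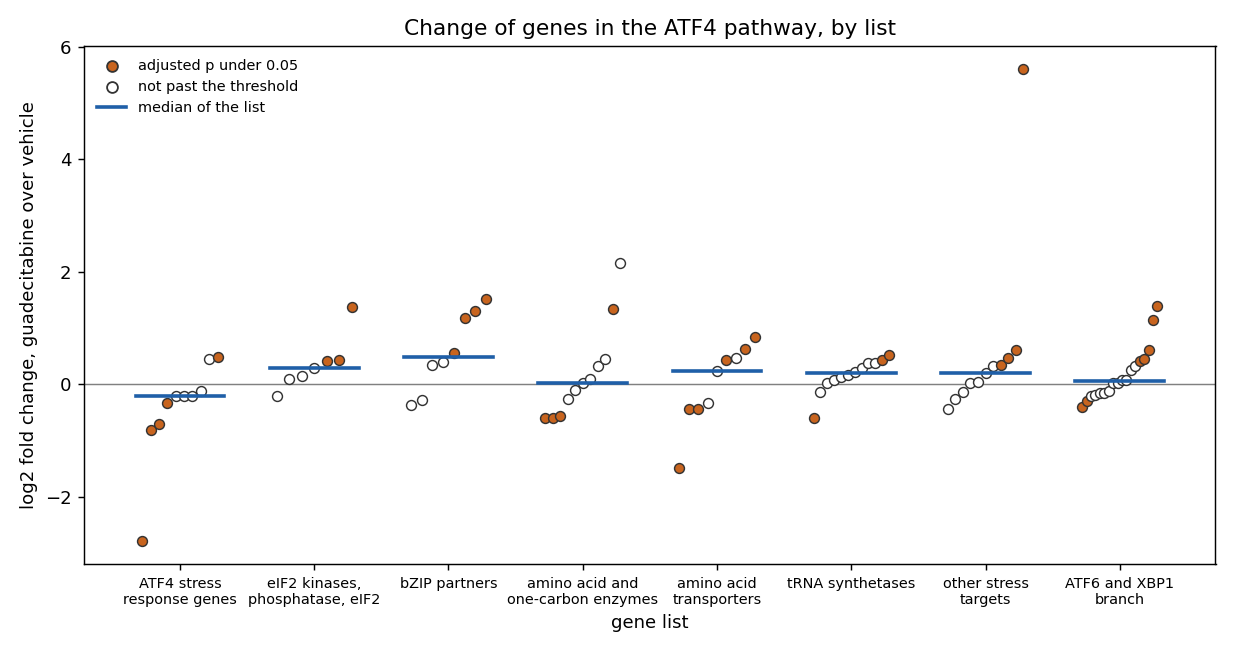
Log2 fold change of guadecitabine over vehicle for each tested gene of the 10 members and of 7 lists, sorted within each list. Filled points passed an adjusted p of 0.05 in edgeR and the bars are list medians, which run from -0.21 for the members to 0.48 for the bZIP partners, with STC2 at 5.60 as the highest point.

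The ATF6 and XBP1 branches of the unfolded protein response, which raise chaperones of the endoplasmic reticulum without ATF4, were read beside these lists. Of 18 genes, 5 were higher and 2 lower, and the median log2 fold change was 0.06. The main chaperone HSPA5 had 0.03 and did not pass (adjusted p = 0.817, edgeR). The co-chaperones DNAJB9 and DNAJC3 rose, with log2 fold changes of 1.15 and 0.61, and so did ERN1, the sensor IRE1, with 1.39 (adjusted p of 8.32e-05, 0.0150 and 0.00464, edgeR). ERN1 had 56.2, 63.4 and 125 normalized counts in vehicle and 219, 204 and 226 after guadecitabine, without overlap. Its log2 fold change was 1.86 without vehicle replicate 3. CALR and CRELD2, at -0.30 and -0.40, were just past the threshold (adjusted p of 0.0339 and 0.0482, edgeR), and neither passed without vehicle replicate 1, vehicle replicate 2, guadecitabine replicate 1 or guadecitabine replicate 3. Without guadecitabine replicate 3, 3 genes of this list were higher.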

How the data were processed

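RNA sequencing libraries of MDA-MB-231 cells, 3 treated with vehicle and 3 with guadecitabine, were grouped by their titles. The authors aligned reads to hg19 with STAR 2.3.1z, counted reads in exons per RefSeq transcript with iRNA-seq and deposited raw counts, 1 transcript per gene. The counted exon length in bp, another deposited column, gave reads per kb. The deposited table also holds 6 columns of regularized log values and the authors' own DESeq2 comparison (fold changes, statistics, p-values), none of which were used here. How reads matching several places or strands were counted is not given in the sources used here.

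Counts were tested with edgeR 4.0.16 (R 4.3.3): TMM normalization, filterByExpr with a minimum count of 10, a quasi-likelihood F test, and Benjamini-Hochberg adjustment over 13322 genes at 0.05. Normalized counts were scaled to the mean total of 17911210. Standard errors came from the F statistic and 95% intervals from its degrees of freedom. The fit was tested on simulated counts. No 2 libraries held identical counts. The depth of 8792127 to 22277442 counts sets the precision, and counts carry counting error besides the spread between libraries.

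Alternatives were a replicate block, DESeq2 1.42.0 (Wald test), its size factors, library totals, no filter, at least 10 counts in every library, and each library left out. The members and lists were chosen with earlier results of these data known. The text names all members and, per list, up to 3 genes with the largest rise and 3 with the largest fall among those with adjusted p under 0.05 and a mean count of at least 100.0. The kinase genes, HSPA5, PSPH and SESN2 were added after their values were seen. Promoter windows came from RefSeq on GRCh38.p14, and gene positions were not converted between builds.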

Additional observations from a re-analysis of the deposited data

How the results depend on the processing

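DDIT4, PSAT1 and VLDLR passed the threshold, and ATF4, TRIB3, PHGDH and SLC7A5 did not, under each of the 12 alternatives, and no member changed its direction. The log2 fold changes ranged from -2.92 to -2.65 for DDIT4, -0.78 to -0.64 for PSAT1, -0.90 to -0.73 for VLDLR and -0.13 to -0.08 for ATF4. ASNS lost its call with library totals only (-0.30, adjusted p = 0.0504) and with no filter (-0.31, adjusted p = 0.0597). With each library left out in turn, ASNS ranged from -0.35 to -0.31, DDIT3 from 0.35 to 0.59 and CHAC1 from 0.24 to 0.61, and 0 to 2 members were called higher. The fits with a library left out also had fewer samples, and the cause of these changes was not tested. Over all genes tested, 1706 to 3002 were higher and 1629 to 2575 lower in these fits, the lowest counts being those without guadecitabine replicate 3. In the ATF6 and XBP1 list, 3 to 5 genes were higher and 0 to 2 lower with a library left out, and lower genes numbered 0 with the replicate block and no filter and 1 with the size factors of DESeq2 and library totals only. In reads per kb, ATF4 in vehicle moved to 1709 with library totals only and ranged from 1706 to 1746 with a library left out, ASNS after guadecitabine moved to 330 and VLDLR in vehicle to 63.4 with library totals only.

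With the replicate number as a block, DDIT3 was at 0.49, DDIT4 at -2.76, PSAT1 at -0.70, VLDLR at -0.81 and ASNS at -0.33, with 1 member higher and 4 lower, and 2424 genes higher and 2230 lower over all. After subtraction of the group means, libraries of equal number correlated at -0.05, 0.049 and -0.037 across genes. Libraries of unequal number correlated at -0.061 to 0.063. Because deviations from a group mean depend on each other within the group, these values cannot decide whether libraries of equal number came from the same experiment. The shallowest library limits the low members most, with 62 counts for VLDLR.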

Other observations

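DDIT4 is also a target of the hypoxia-inducible factors and of the glucocorticoid receptor. Genes known for these inputs were listed after values of these data, their own included, were seen. Their counts only describe lists chosen in this way, and the lists were not tested. The cause of the fall of DDIT4 was not tested. Of 10 targets of hypoxia-inducible factors, 7 were lower and 1 higher after guadecitabine (edgeR, adjusted p of 0.05), against 18.4% lower and 19.3% higher over all genes tested, with a median log2 fold change of -0.72. With 1 library left out at a time, an alternative chosen after seeing the data, 5 to 7 were lower. NDRG1, a differentiation-related gene induced by low oxygen, fell from 13346 ± 691 to 3282 ± 138 normalized counts (SD, n = 3), which is a log2 fold change of -2.02, and CA9, a carbonic anhydrase of the cell surface, had -1.91. EGLN3, an oxygen-sensing prolyl hydroxylase, had -1.31 and BNIP3, a mitophagy receptor, had -1.05. PDK1, ANKRD37 and P4HA1 were also lower, at -0.78, -0.65 and -0.52. ANKRD37 kept its call only without vehicle replicate 3, and P4HA1 only without vehicle replicate 3 or guadecitabine replicate 1. ADM, which encodes adrenomedullin, went against the others and rose with 1.88, and VEGFA and KDM3A did not pass, at -0.14 and -0.16.

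Of 7 targets of the glucocorticoid receptor, 2 were higher and 2 lower (edgeR, adjusted p of 0.05), against 19.3% and 18.4% of all genes tested. DUSP1, a MAP kinase phosphatase, had a log2 fold change of 2.25 and the kinase gene SGK1 had 0.81, while TSC22D3 (GILZ) had -0.63 and ERRFI1, a feedback inhibitor of the EGF receptor, had -0.45. FKBP5 and PER1 had 0.28 and 0.35 and did not pass, although PER1 passed without guadecitabine replicate 1, at 0.40. KLF9 had 108, 96.1 and 248 normalized counts in vehicle and 89.1, 97.7 and 68.6 after guadecitabine, and did not pass at -0.84. Its log2 fold change was -0.28 without vehicle replicate 3, the library with the raised background, and -1.07 without vehicle replicate 2, where it passed (adjusted p = 0.0469, edgeR).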
